A study of Arabidopsis thaliana with 12 samples.

Results

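The genes described here are the protein genes that the chloroplast genome itself encodes, measured in roots of Arabidopsis thaliana. They are the genes whose array row was annotated to 1 gene and whose entry in the RefSeq gene table (assembly TAIR10.1) lies on the chloroplast genome. Lower-case names of the psa, psb, pet, atp, ndh, rpl, rps, rpo and ycf families, with rbcL, accD, clpP, matK, cemA and ccsA, led to 65 names. Of these, rpl2 and atp1 were not placed on the chloroplast genome by that table and were left out, which leaves 63 of the 16550 genes tested, each read from 1 row. The rule uses names and genome location and no expression value, but the set was chosen with earlier results of these data known. The table lists 78 names of chloroplast protein genes, so 15 had no row of their own, among them atpB. None of its 37 chloroplast transfer RNAs and 7 ribosomal RNAs was measured by a row of its own.

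Roots were taken from 5-day-old seedlings of 1 line, 35S::LBD16:GR in the arf7-2 arf19-5 double mutant, grown on agar under continuous light. LBD16 is a transcription factor of lateral root initiation. Under the broadly active 35S promoter, the line makes it joined to the steroid-binding domain of the glucocorticoid receptor (GR). It lacks the auxin response factors ARF7 and ARF19. The 4 groups, of 3 arrays each, received 2 µM dexamethasone (DEX) with 10 µM cycloheximide (CHX), CHX alone, DEX alone, or mock solution (DMSO) for 4 hours. DEX moves such a fusion into the nucleus, and CHX stops the ribosomes of the cytosol. All 12 arrays carry the fusion and both mutations, so no array shows DEX or CHX in roots without them. The labels call the arrays of a treatment independent sets of RNA without naming separate plants, so p-values measure the spread between these arrays.

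Plastids keep a small genome of bacterial origin. It encodes part of the photosystems, the cytochrome b6f complex, the ATP synthase and the NADH dehydrogenase-like (NDH) complex, part of the plastid ribosome, and the core of a bacterial-type RNA polymerase, whose sigma factors come from the nucleus. A phage-type polymerase made by the nucleus transcribes some genes, rpoB among them. Plastid ribosomes are of the bacterial type and are not a target of CHX, while most plastid proteins are made in the cytosol and imported. Root plastids are mostly not green, and make starch, fatty acids and amino acids.

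The deposited values are on a log2 scale and ran from 0.426 to 13.98 over all rows and arrays. The chloroplast genes lay in the upper part of that range. Their arrays spanned 6.85 to 13.09, their means over 12 arrays ran up to 12.87 for rpl14 with a lowest mean of 7.49 for psbM, and 5100 genes (30.8%) had a mean at least as high as psbM. The median gene had a mean of 5.99. A row's signal also depends on its probes, so these means do not rank the transcripts of different genes. Over the 63 genes, the array medians were 10.45, 10.48 and 10.51 with DEX+CHX, 10.53, 10.43 and 10.62 with CHX, 11.09, 11.00 and 11.13 with DEX, and 11.07, 10.93 and 11.13 with mock. All 6 array medians with CHX were thus below all 6 without it, while the median over all genes tested was 5.98 to 6.03 with CHX and 5.87 to 5.92 without. Over all rows of the array, those without a gene name included, the median was also lower with CHX, at 5.62 to 5.68 against 6.07 to 6.14 without. As to tissue, the root hair markers EXPA7 (7.42 to 8.67) and EXPA18 (9.02 to 10.6) were measured, and COBL9, SMB, CASP1 and SCR had no row of their own. No 2 arrays held identical values.

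CHX was followed by lower values for nearly the whole chloroplast genome, from the photosystem genes to the ribosome and RNA polymerase genes. For CHX against mock, 60 of the 63 genes were lower at an adjusted p below 0.05 (limma, Benjamini-Hochberg over 16550 genes), and none was higher. At an unadjusted p below 0.05, 62 were lower and 0 higher. Of all genes tested, 30.7% were called lower and 24.2% higher in that comparison, so that lower calls were common outside the plastid as well. Among the 5100 genes at least as bright as psbM, 45.5% were called lower. The median difference of the 63 genes was -0.541, a level 31.3% lower, against -0.0766 over all genes and -0.174 over the bright ones. All 63 differences were negative, against 55.7% of those of all genes, and ran from -1.26 for ndhC to -0.261 for psaI. The CHX and mock arrays did not overlap for 59 of the 63, with CHX lower, against 33.7% of all genes, and none separated upward, against 26.5% of all genes. In bulk roots, fewer cells with such transcripts and less RNA per cell cannot be told apart.

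The same comparison in the presence of DEX used the other 6 arrays. For DEX+CHX against DEX, 60 of the 63 genes were lower and none higher by the same limma test (63 lower and 0 higher at an unadjusted p below 0.05). Of all genes, 32.5% were called lower and 23.3% higher, and of the bright ones 47.4% were called lower. The median difference was -0.57, a level 32.6% lower, against -0.118 over all genes and -0.216 over the bright ones. Arrays did not overlap for 62 of the 63 genes, all lower, against 35.6% of all genes, and none separated upward, against 25.3% of all genes. The same 60 genes were called lower in both comparisons, and psbT, rpl32 and rpl36 were called in neither. The comparisons share no array, although they share the estimate of the spread. Across the 63 genes the differences in the 2 comparisons correlated at r = 0.956 (Spearman rho = 0.947), and across all 16550 genes at 0.975 (rho = 0.917), given as a description since genes are not independent replicates.

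**Figure D1:**
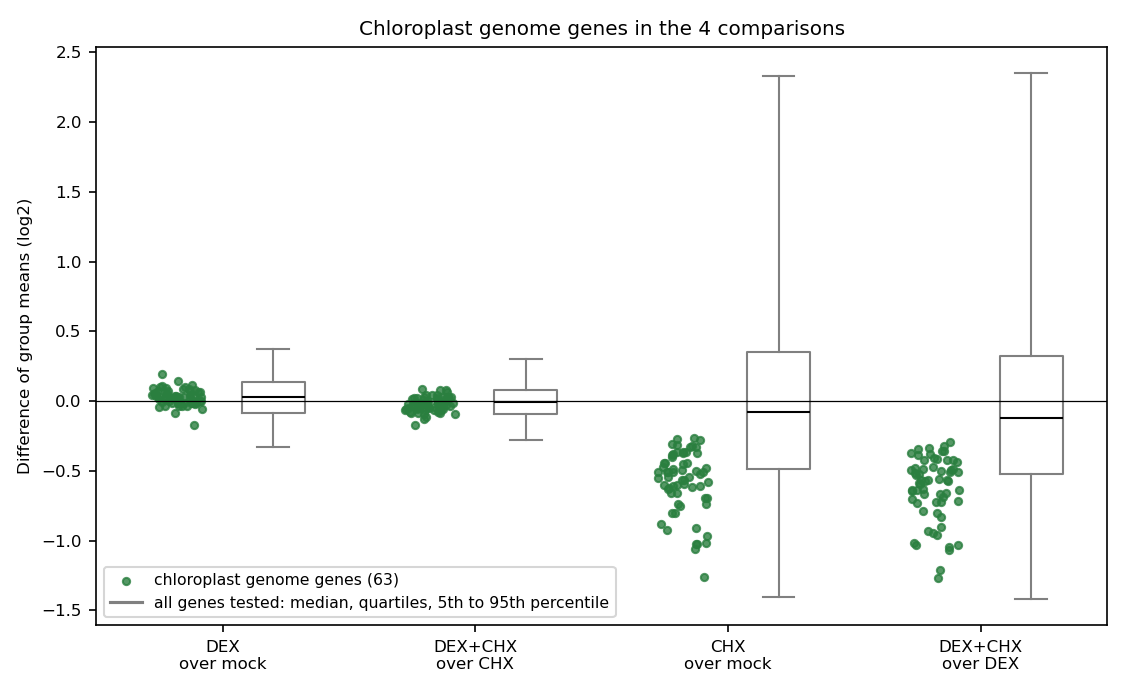
Differences of group means (log2) of the chloroplast genome genes, 1 point per gene, in the comparisons named on the axis. All 63 genes lie below 0 in both CHX comparisons, with medians of -0.57 for DEX+CHX against DEX and -0.541 for CHX against mock, while the DEX comparisons lie around 0.

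The size of the fall depended on how the arrays were scaled. In the settings run, its direction stayed negative except for 1 gene in 1 setting (rpl14, given with its values). Quantile normalization moved the median difference of all genes by 0.304 for CHX against mock and by 0.329 for DEX+CHX against DEX. Centring each array on the median of the genes tested, which was higher with CHX, moved it by -0.118 and -0.104. Centring on the median of all rows was not run. That median was 5.62 to 5.68 with CHX and 6.07 to 6.14 without. The gap is only somewhat smaller than the median falls of -0.541 and -0.57 of the 63 genes. Such centring would leave much smaller falls, and how many calls would stay was not tested. Relative to the median gene, the 63 genes stood at -0.464 and -0.452 as deposited or centred, and at -0.615 in both comparisons with quantile normalization. With quantile normalization 42 and 46 of the 63 were called lower and none higher, beside 21.6% and 21.5% of all genes lower and 39% and 38.4% higher. After centring, 63 and 63 were called lower, beside 36.7% and 38.5% of all genes lower and 21% and 20.7% higher.

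Photosystem I genes fell together: all 7 measured were called lower in both CHX comparisons, with medians of -0.508 for CHX against mock and -0.559 for DEX+CHX against DEX. For this group and those that follow, 30.7% and 32.5% of all genes were called lower in these comparisons. Among genes at least as bright as psbM the shares were 45.5% and 47.4%. For psaA, which encodes a core protein that binds the reaction centre pigments, the values were 10.88, 10.84 and 11.00 with DEX+CHX, 10.88, 10.91 and 11.01 with CHX, 11.69, 11.64 and 11.87 with DEX, and 11.59, 11.72 and 11.88 with mock. Every array with CHX was below every array without it. The difference was -0.80 ± 0.10 (SE) for CHX against mock, 42.5% lower (adjusted p = 3.41e-05), and -0.83 ± 0.10 for DEX+CHX against DEX (adjusted p = 2.54e-05). Its partner psaB differed by -0.52 and -0.65. Smaller differences were those of psaI, a small subunit (-0.26 and -0.32), and ycf3, an assembly factor (-0.27 and -0.39). The iron-sulfur subunit gene psaC (-0.44 and -0.53), the small subunit gene psaJ (-0.51 and -0.56) and the assembly factor gene ycf4 (-0.62 and -0.72) lay between. With quantile normalization psaI (0 and -0.03) and ycf3 (-0.03 and -0.12) lost both calls.

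For photosystem II, 12 of the 13 measured genes were called lower in both CHX comparisons, with medians of -0.614 and -0.656. The D1 protein of its reaction centre, which is replaced often in the light, is encoded by psbA, whose values were 12.56, 12.60 and 12.67 with DEX+CHX, 12.64, 12.73 and 12.70 with CHX, 12.95, 12.97 and 12.93 with DEX, and 12.93, 12.91 and 13.06 with mock. Its arrays with CHX lay below those without it, by little at the edges. The difference was -0.28 ± 0.08 for CHX against mock (adjusted p = 0.012) and -0.34 ± 0.08 for DEX+CHX against DEX (adjusted p = 0.00323), the smallest of the 13. Without mock replicate 3 the CHX against mock difference was -0.23 (adjusted p = 0.0533). Larger differences were found for psbN, an assembly factor (-0.97 and -0.94), and for psbZ (-0.80 and -1.03) and psbM (-0.93 and -0.80), both small subunits. The psbN gene lies on the opposite strand inside the psbB transcription unit, where its neighbours psbT and psbH differed by -0.50 and -0.61 for CHX against mock. The inner antenna gene psbB (-0.66 and -0.72) and the cytochrome b559 genes psbE (-0.69 and -0.73) and psbF (-0.54 and -0.66) were near the median.

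The gene with the lowest mean signal of the 63, psbM, had values of 7.07, 7.07 and 7.16 with DEX+CHX, 7.04, 6.85 and 7.14 with CHX, 7.75, 7.90 and 8.06 with DEX, and 7.95, 7.61 and 8.25 with mock. The CHX arrays were all below the mock arrays, and the DEX+CHX arrays all below the DEX arrays. Its call held at -0.93 ± 0.15 (adjusted p = 0.000202) and -0.80 ± 0.15 (adjusted p = 0.000605). The exception in photosystem II was psbT, a small subunit gene, at 7.99, 7.61 and 7.28 with DEX+CHX, 7.74, 7.77 and 7.89 with CHX, 8.19, 8.08 and 8.14 with DEX, and 8.66, 7.80 and 8.45 with mock. Its replicates spread widely, and its difference of -0.50 ± 0.21 for CHX against mock had an adjusted p of 0.0604 (95% interval -0.96 to -0.04), with 0.0572 for DEX+CHX against DEX (difference -0.51 ± 0.21), which was 0.048 with the replicate number as a block.

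In the electron transport chain between the photosystems, all 6 cytochrome b6f genes were called lower in both CHX comparisons, with medians of -0.425 and -0.441. The gene for cytochrome b6, petB, had 12.25, 12.20 and 12.09 with DEX+CHX, 12.11, 12.19 and 12.19 with CHX, 12.54, 12.56 and 12.54 with DEX, and 12.51, 12.52 and 12.55 with mock. Arrays with and without CHX separated fully, and the difference was -0.36 ± 0.08 for CHX against mock (adjusted p = 0.00193) and -0.37 ± 0.08 for DEX+CHX against DEX (adjusted p = 0.00165). Cytochrome f, from petA, differed by -0.51 and -0.57, and subunit IV, from petD, by -0.48 and -0.47. Of the small subunits, petN stood apart with -0.91 and -1.03, against -0.33 and -0.34 for petG and -0.37 and -0.41 for petL. With quantile normalization 3 of the 6 lost both calls, petB at -0.11 and -0.09, petG at -0.09 and -0.07, and petL at -0.12 and -0.15. The 4 ATP synthase genes with a row of their own were all called lower in both, with medians of -0.479 and -0.497. Among them were atpA, for a catalytic-head subunit (-0.47 and -0.50), and atpH, for the subunit of the membrane ring (-0.31 and -0.36), and the membrane-stalk gene atpF (-0.51 and -0.49) and atpI (-0.49 and -0.57) completed the group. With quantile normalization atpH lost both calls (-0.06 and -0.10) and atpA the call for CHX against mock (-0.22, adjusted p = 0.0637).

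The NDH complex takes electrons back into the chain around photosystem I, and all 10 of its measured genes were called lower in both CHX comparisons, with medians of -0.585 and -0.566. The gene with the largest difference of all 63 was ndhC, at 8.56, 8.67 and 8.77 with DEX+CHX, 8.71, 8.70 and 8.71 with CHX, 9.98, 9.96 and 9.87 with DEX, and 9.96, 9.94 and 10.01 with mock. Arrays with CHX lay more than 1 log2 unit below those without it. Its level was 58.3% lower with CHX than with mock (-1.26 ± 0.08, adjusted p = 9.84e-08), and 58.5% lower with DEX+CHX than with DEX (-1.27 ± 0.08, adjusted p = 9.27e-08). The next gene, ndhK, whose reading frame overlaps that of ndhC so that their rows may share probes (not checked here), followed at 8.08, 8.19 and 8.12 with DEX+CHX, 8.17, 8.15 and 8.24 with CHX, 9.30, 9.11 and 9.13 with DEX, and 9.14, 9.25 and 9.25 with mock. It too separated fully, by -1.03 ± 0.09 for CHX against mock (adjusted p = 8.12e-07) and -1.05 ± 0.09 for DEX+CHX against DEX (adjusted p = 6.67e-07).

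Another large NDH difference was that of ndhF, at 7.81, 7.96 and 7.90 with DEX+CHX, 7.81, 7.85 and 7.93 with CHX, 8.83, 8.82 and 8.73 with DEX, and 8.70, 8.71 and 8.82 with mock. All 6 arrays with CHX were below the 6 without, by -0.88 ± 0.08 for CHX against mock (adjusted p = 2.43e-06) and -0.90 ± 0.08 for DEX+CHX against DEX (adjusted p = 1.92e-06). For ndhG the values were 8.87, 8.96 and 9.26 with DEX+CHX, 9.00, 8.91 and 9.19 with CHX, 9.35, 9.43 and 9.76 with DEX, and 9.50, 9.58 and 9.71 with mock. The fall was near the group median, at -0.57 ± 0.14 (adjusted p = 0.00391) and -0.48 ± 0.14 (adjusted p = 0.0101). The smallest NDH difference for CHX against mock was that of ndhD (-0.32), and the rest ran up to -0.63 for ndhH.

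Genes of the plastid's own gene expression machinery were lower too. All 4 RNA polymerase genes were called in both CHX comparisons, with medians of -0.593 and -0.695. The beta subunit gene rpoB had 9.23, 9.39 and 9.56 with DEX+CHX, 9.35, 9.38 and 9.50 with CHX, 10.08, 10.02 and 10.14 with DEX, and 9.87, 9.97 and 10.12 with mock. Arrays with CHX were below those without, by -0.58 ± 0.11 for CHX against mock (adjusted p = 0.000543) and -0.69 ± 0.11 for DEX+CHX against DEX (adjusted p = 0.000134). The genes rpoC1 (-0.66 and -0.72) and rpoC2 (-0.61 and -0.70), which share its transcript and encode the parts of the beta-prime subunit, were close to it, and the alpha subunit gene rpoA differed by -0.38 and -0.42. The maturase gene matK, whose protein serves in the splicing of plastid introns, had 11.00, 10.94 and 11.06 with DEX+CHX, 11.06, 10.93 and 11.07 with CHX, 12.07, 11.98 and 12.15 with DEX, and 11.96, 11.99 and 12.16 with mock. Its level was 50.5% lower with CHX than with mock (-1.02 ± 0.09, adjusted p = 1.43e-06) and 52.3% lower with DEX+CHX than with DEX (-1.07 ± 0.09, adjusted p = 8.98e-07), and no array with CHX reached one without it.

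Of the small-subunit ribosomal protein genes, all 7 measured were called lower in both CHX comparisons, with medians of -0.546 and -0.628. The largest difference among them was that of rps16, at 7.84, 7.86 and 7.78 with DEX+CHX, 7.93, 7.68 and 7.73 with CHX, 9.01, 9.14 and 8.94 with DEX, and 9.01, 8.56 and 8.94 with mock. Each array with CHX was below each array without it. The difference was -1.06 ± 0.12 for CHX against mock (adjusted p = 1.32e-05) and -1.21 ± 0.12 for DEX+CHX against DEX (adjusted p = 4.22e-06). For rps18 the values were 9.89, 9.92 and 9.68 with DEX+CHX, 9.88, 9.84 and 9.79 with CHX, 10.85, 10.49 and 10.52 with DEX, and 10.70, 10.37 and 10.70 with mock. They separated as well, by -0.75 ± 0.13 (adjusted p = 0.000309) and -0.79 ± 0.13 (adjusted p = 0.000203). The most variable of the 63 genes was rps14, at 8.97, 9.04 and 9.70 with DEX+CHX, 9.17, 9.00 and 9.78 with CHX, 10.00, 9.98 and 10.51 with DEX, and 9.74, 9.85 and 10.57 with mock. Replicate 3 was the highest in every treatment, and CHX replicate 3 exceeded the lowest mock array. The call for CHX against mock was narrow (-0.74 ± 0.28, adjusted p = 0.0421) and was lost in 7 of 21 alternative settings. Without CHX replicate 1 the adjusted p was 0.114, without CHX replicate 2 it was 0.149, without mock replicate 3 it was 0.177 (difference -0.48), and without DEX replicate 1 it was 0.0504. For DEX+CHX against DEX the difference was -0.93 ± 0.28 (adjusted p = 0.0135), a call that was lost too when DEX replicate 3 (adjusted p = 0.058), DEX+CHX replicate 1 (0.056) or DEX+CHX replicate 2 (0.05) was left out.

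Large-subunit ribosomal protein genes gave the smallest median of the groups, -0.365 for CHX against mock and -0.432 for DEX+CHX against DEX, and 4 of the 6 measured were called lower in both. The gene with the highest mean signal, rpl14, had 12.68, 12.69 and 12.82 with DEX+CHX, 12.68, 12.67 and 12.78 with CHX, 13.04, 12.97 and 13.06 with DEX, and 13.02, 13.00 and 13.09 with mock. Arrays with CHX lay just below those without it, by -0.33 ± 0.08 (adjusted p = 0.0051) and -0.30 ± 0.08 (adjusted p = 0.00926). With quantile normalization rpl14, rpl16 and rpl20 lost both calls, and the DEX+CHX against DEX difference of rpl14 was 0.01 (adjusted p = 0.916). For rpl33 the values were 9.83, 9.98 and 9.80 with DEX+CHX, 9.86, 9.73 and 9.94 with CHX, 10.49, 10.38 and 10.21 with DEX, and 10.37, 10.34 and 10.48 with mock, with differences of -0.55 ± 0.10 (adjusted p = 0.00062) and -0.49 ± 0.10 (adjusted p = 0.00147). The uncalled pair were rpl32 and rpl36. For rpl36 the values were 9.74, 9.85 and 10.38 with DEX+CHX, 9.84, 9.66 and 10.23 with CHX, 10.48, 10.27 and 10.82 with DEX, and 10.18, 10.27 and 10.78 with mock. Replicate 3 was the highest in every treatment, and the difference of -0.50 ± 0.22 for CHX against mock (adjusted p = 0.0804) had a 95% interval of -0.99 to -0.01. In the fit blocked by replicate number rpl36 was called in both, with adjusted p = 0.00103 for CHX against mock and 0.000675 for DEX+CHX against DEX. For rpl32 the differences were -0.36 ± 0.18 (adjusted p = 0.106) and -0.44 ± 0.18 (adjusted p = 0.0528), the second with adjusted p = 0.0493 under the block.

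**Figure D2:**
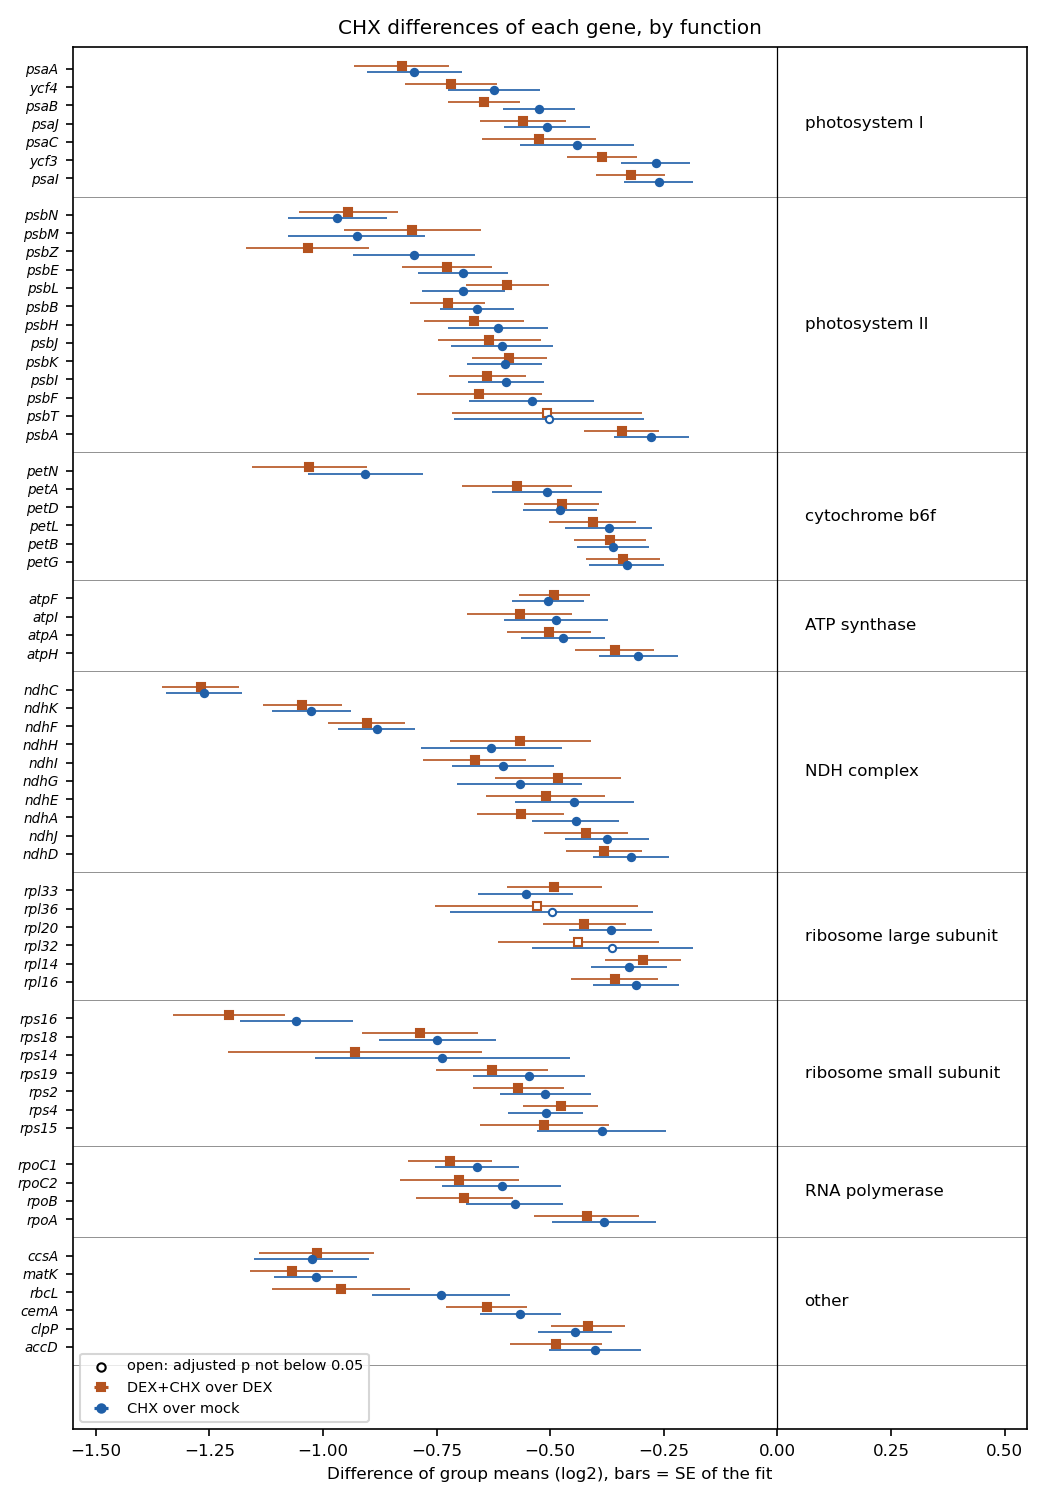
Differences of group means (log2) by function, 1 point per gene, for DEX+CHX against DEX and for CHX against mock. All groups lie below 0, with the median of the large ribosomal subunit genes nearest to 0 (-0.432 and -0.365) and wide ranges inside the photosystem II, cytochrome b6f, NDH and small ribosomal subunit groups. The groups also differ in signal, and function and signal were not separated.

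The last group holds 6 genes with other tasks, matK (described above) among them, and all were called lower in both CHX comparisons. The large subunit of Rubisco, the carbon-fixing enzyme of leaves, is encoded by rbcL, at 10.89, 10.86 and 11.22 with DEX+CHX, 11.10, 11.02 and 11.24 with CHX, 11.79, 11.84 and 12.22 with DEX, and 11.72, 11.76 and 12.10 with mock. Its arrays with CHX were below those without it, by -0.74 ± 0.15 for CHX against mock (adjusted p = 0.00121) and -0.96 ± 0.15 for DEX+CHX against DEX (adjusted p = 0.000163). Fatty acid synthesis, a task of root plastids as well, needs accD, a subunit gene of acetyl-CoA carboxylase, at 11.61, 11.39 and 11.57 with DEX+CHX, 11.48, 11.57 and 11.63 with CHX, 12.10, 11.86 and 12.07 with DEX, and 11.98, 11.88 and 12.02 with mock. The fall was smaller, at -0.40 ± 0.10 (adjusted p = 0.00473) and -0.49 ± 0.10 (adjusted p = 0.00127). The protease subunit gene clpP had 11.93, 11.88 and 11.96 with DEX+CHX, 11.91, 11.91 and 12.01 with CHX, 12.36, 12.29 and 12.36 with DEX, and 12.37, 12.33 and 12.48 with mock. It differed by -0.45 ± 0.08 (adjusted p = 0.000512) and -0.42 ± 0.08 (adjusted p = 0.000843), with no overlap between arrays with and without CHX. The cytochrome c assembly gene ccsA differed by -1.02 and -1.01, and the envelope protein gene cemA by -0.57 and -0.64.

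**Figure D3:**
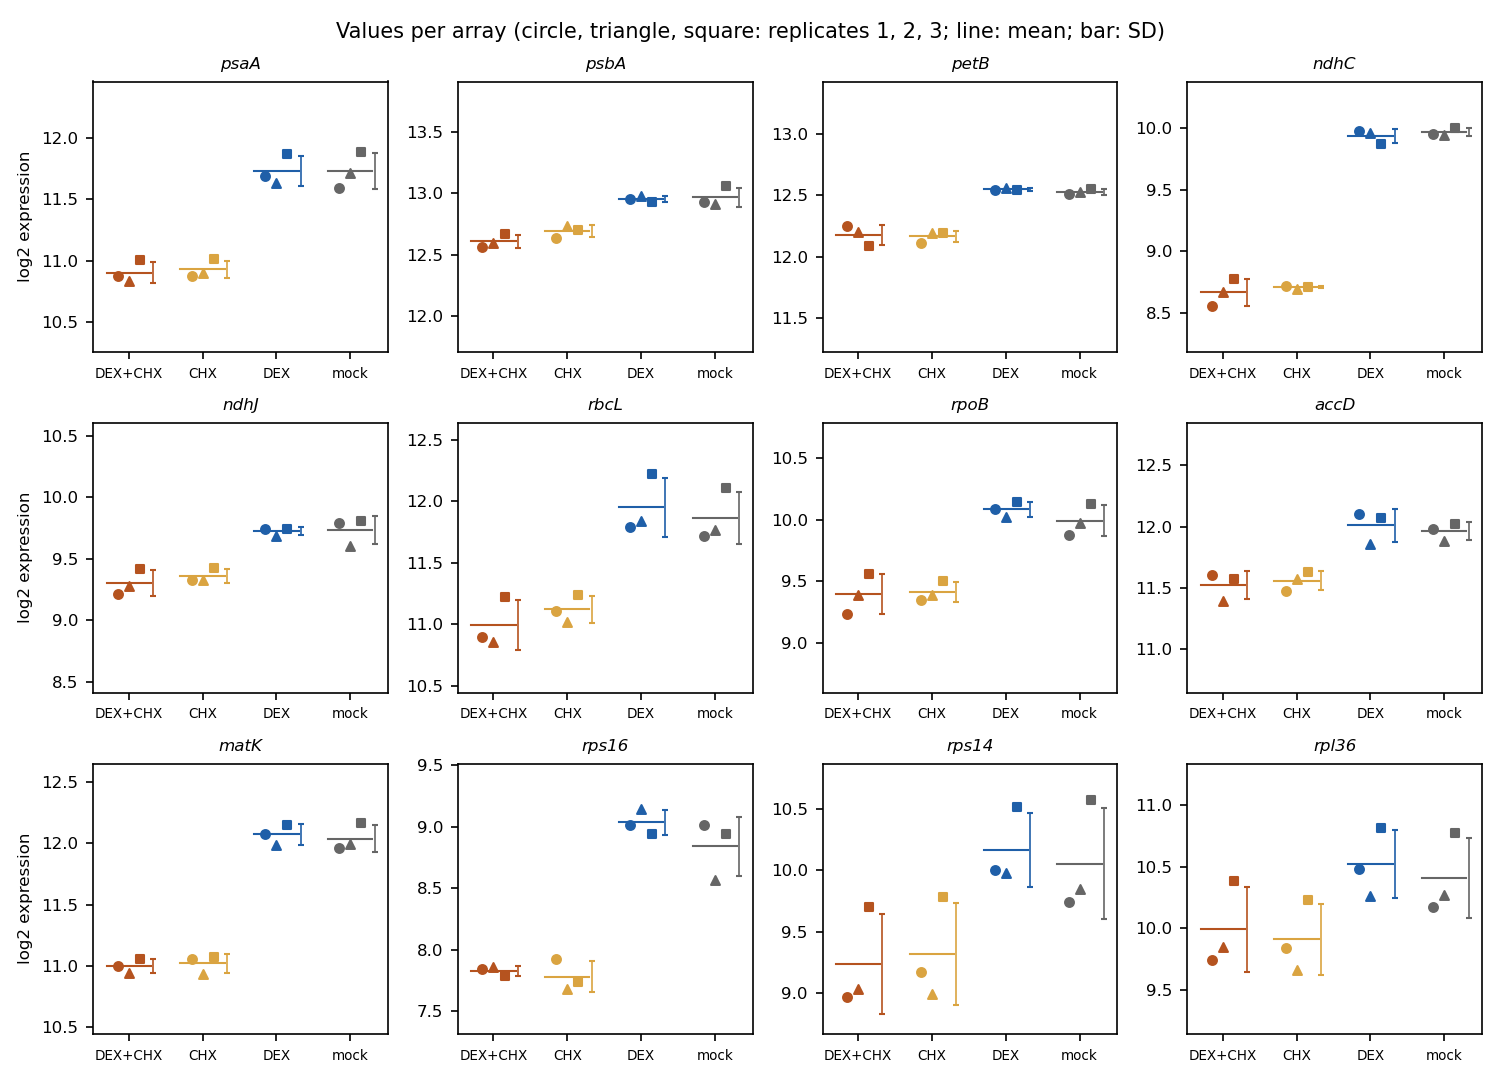
Values (log2 expression) of 12 chloroplast genome genes on every array, by treatment, with the mean as a line and the SD as a bar; each panel spans the same number of log2 units. The arrays with CHX lie below those without it in most panels, the spread of rps14 is wide in every treatment, and DEX and mock overlap.

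A fall of at least 2-fold was measured for 5 genes with CHX against mock (ccsA, matK, ndhC, ndhK and rps16) and for 7 with DEX+CHX against DEX, the same 5 with petN and psbZ. These genes belong to 5 of the groups described above. Chloroplast genes are transcribed in units of several genes, and 45 of the 63 fall in 12 such units known from the literature, a list drawn up with the values known. The 33 pairs of measured neighbours in these units differed from each other by a median of 0.119 in the CHX against mock difference and 0.106 in the DEX+CHX against DEX one, while all 1953 pairs of the 63 genes differed by 0.194 and 0.206. As an example, rpoB, rpoC1 and rpoC2 lay within 0.0826 of their neighbours. Some neighbours differed by more than the median of all pairs, such as psaI and ycf4 (0.363 and 0.395), psbH and petB (0.252 and 0.298) and rpl16 and rps19 (0.235 and 0.27). The widest gap between neighbours was that of ndhK and ndhJ (0.652 and 0.624), in the unit of ndhC, ndhK and ndhJ, with differences of -1.26, -1.03 and -0.37 for CHX against mock. On each array, the value of ndhC minus that of ndhJ was -0.66, -0.61 and -0.65 with DEX+CHX, -0.61, -0.63 and -0.72 with CHX, 0.23, 0.27 and 0.13 with DEX, and 0.16, 0.34 and 0.20 with mock. Every array with CHX thus lay below every array without it. The pair comes from the unit with the widest gap, so this separation of the 2 rows is a description. The 9 genes with an intron had medians of -0.445 and -0.475, and the 54 without one -0.56 and -0.592. Gene length did not track the difference (r = 0.00863 and -0.0403 across the 63 genes).

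Chloroplast genes with a brighter signal had smaller differences. Across the 63 genes the mean over 12 arrays correlated with the CHX against mock difference at r = 0.65 (rho = 0.64) and with the DEX+CHX against DEX one at 0.588 (rho = 0.592), while across the 5100 bright genes these were -0.0679 and -0.0631. The arrays enter both axes, and the values are a description. The 21 dimmest (means 7.49 to 10.01) had medians of -0.691 and -0.689, the 21 in the middle (10.12 to 11.48) -0.554 and -0.628, and the 21 brightest (11.52 to 12.87) -0.382 and -0.42. In the brightest range the 88 other genes had 68.2% and 65.9% called lower and medians of -0.377 and -0.353. In the dimmest range 4250 other genes had medians of -0.118 and -0.165, with 42.7% and 44.8% called lower. With quantile normalization 18 calls were lost for CHX against mock, 15 of them in the brightest 21 genes, and 14 for DEX+CHX against DEX, 13 of them there. The 14 that lost both calls were psaI, ycf3, psbA, petB, petG, petL, atpH, rpl14, rpl16, rpl20, rps15, rpoA, accD and clpP, and psbF, atpA, ndhD and rps14 lost the call for CHX against mock. Whether the range of the arrays limits the bright genes was not tested.

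**Figure D4:**
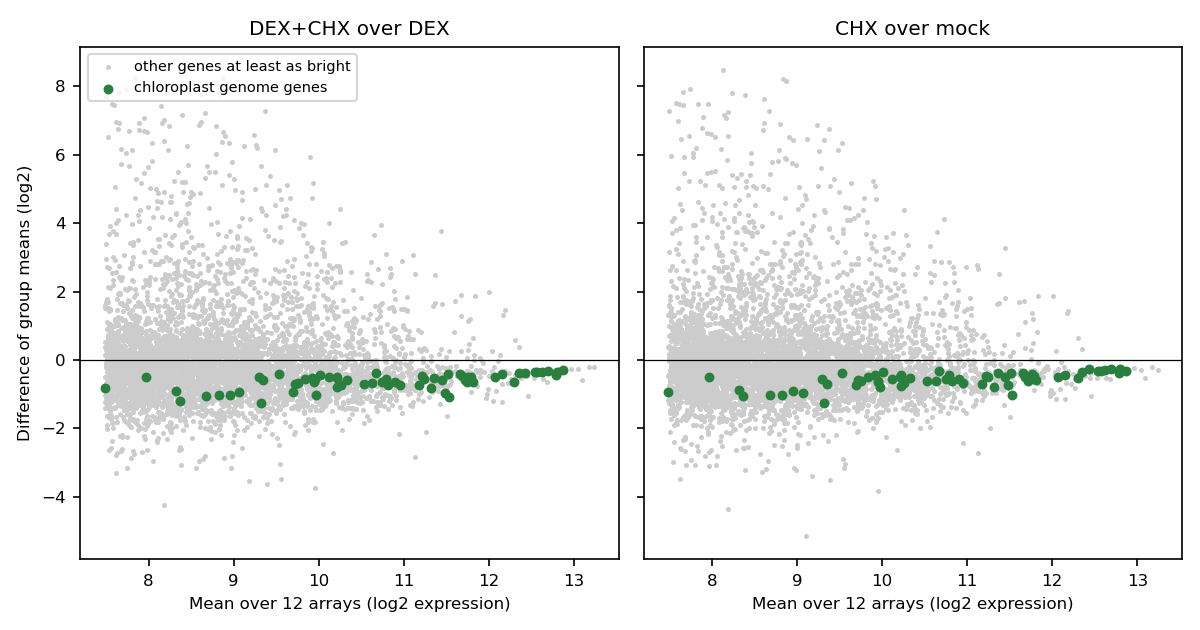
Difference of group means (log2) against the mean over 12 arrays (log2 expression), for DEX+CHX against DEX and CHX against mock; green points are the 63 chloroplast genome genes and grey points the other genes at least as bright as the dimmest of them. The green points approach 0 toward the right, with medians of -0.691 in the dimmest 21 genes and -0.382 in the brightest 21 for CHX against mock.

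No chloroplast gene passed the test with DEX. DEX against mock called 0 of the 63 (limma, smallest adjusted p = 0.681), and at an unadjusted p below 0.05 the count was also 0, where 1.11% of all genes were called higher and 0.411% lower. The median difference was 0.0251 (0.0278 over all genes), with a range of -0.169 for psbT to 0.194 for rps16. By sign, 40 were above 0 and 22 below (57.3% and 42.7% of all genes), and in no gene did the arrays separate, against 9.69% of all genes separated upward and 5.49% downward. The 95% intervals had a median half-width of 0.22, so that differences up to about that size in single genes were within the error, and the intervals reached from -0.63 for psbT to 0.72 for rps14. With CHX present, DEX+CHX against CHX also called 0 of the 63 (0 at an unadjusted p below 0.05, where 0.55% of all genes were called higher and 0.0423% lower). The median there was -0.0221 (-0.00565 over all genes), the range -0.173 for psbT to 0.0862 for psbM, and 21 were above 0 and 42 below (48.1% and 51.9% of all genes). The arrays separated downward for psaB, psaI and ycf3, 3 genes against a share of 4.57% among all genes, by -0.08, -0.07 and -0.05. None separated upward, against 5.12% of all genes.

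The genes at the ends of these ranges show how small the differences were. For DEX against mock, rps16 (0.19 ± 0.12), psbZ (0.14 ± 0.14) and rpl36 (0.11 ± 0.22) lay highest, and psbT (-0.17 ± 0.21), ndhG (-0.09 ± 0.14) and clpP (-0.05 ± 0.08) lowest. For DEX+CHX against CHX, psbM (0.09 ± 0.15), rpl36 (0.08 ± 0.22) and psbL (0.08 ± 0.09) lay highest, and psbT (-0.17 ± 0.21), rbcL (-0.13 ± 0.15) and ycf4 (-0.11 ± 0.10) lowest. None of these passed the test. The array values of psbZ were 9.33, 9.36 and 9.72 with DEX+CHX, 9.56, 9.56 and 9.55 with CHX, 10.47, 10.38 and 10.66 with DEX, and 10.22, 10.25 and 10.61 with mock. For psbL they were 9.13, 9.01 and 9.06 with DEX+CHX, 8.96, 9.00 and 9.01 with CHX, 9.62, 9.60 and 9.76 with DEX, and 9.75, 9.54 and 9.75 with mock, and for ycf4 10.46, 10.31 and 10.51 with DEX+CHX, 10.49, 10.43 and 10.69 with CHX, 11.18, 11.08 and 11.18 with DEX, and 11.14, 11.07 and 11.28 with mock. In each of these 3 genes the DEX arrays overlapped the mock arrays and the DEX+CHX arrays overlapped or met the CHX arrays, while no array with CHX reached one without it.

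The CHX difference with DEX and the one without it did not differ past the threshold in any of the 63 genes. The difference of the 2 differences, tested as an interaction, called 0 (limma, 0 at an unadjusted p below 0.05, where 0.0423% of all genes were called higher and 0.0846% lower). Its median was -0.0521, against -0.0328 over all genes, and it was below 0 in 50 of the 63, against 57% of all genes. It ran from -0.235 for psbZ, with rbcL (-0.22) and rps14 (-0.19) next, to 0.124 for psbM. The median half-width of its 95% intervals was 0.31, and the intervals reached from -1.06 to 0.68, both for rps14.

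**Figure D5:**
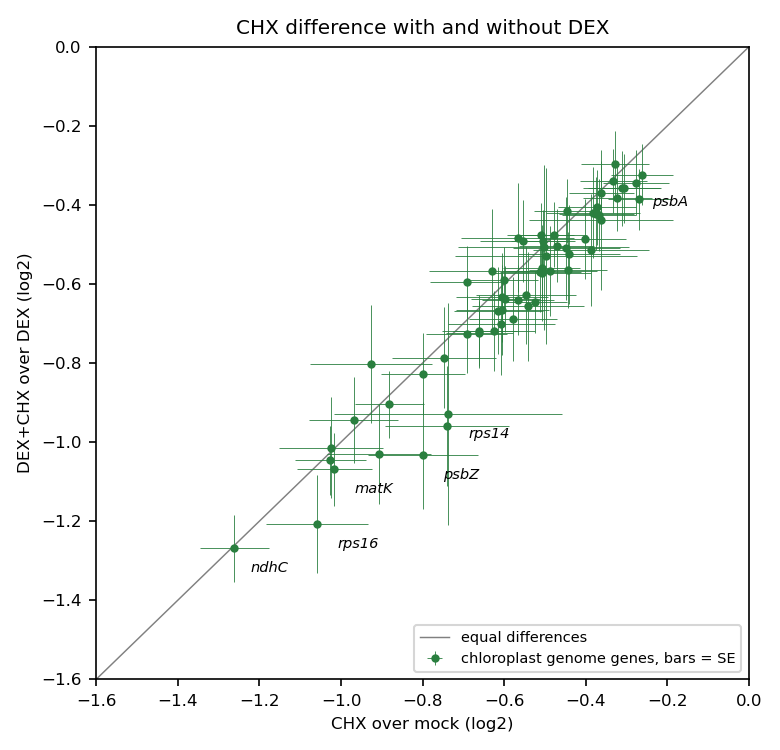
Difference for DEX+CHX against DEX against that for CHX against mock (both log2), 1 point per chloroplast genome gene, with the line of equal values. The genes spread along the line from ndhC (-1.27 and -1.26) to the smallest differences, at r = 0.956.

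Same-numbered arrays shared a deviation in the chloroplast genes. Replicate 3 was the highest of its treatment in all 4 treatments for 30 of the 63 genes (47.6%), against 5.84% of all genes, and replicate 2 was the lowest in all 4 for 7, against 1.18%. Among the 30 were rps14, rbcL, psaA, matK and the 4 rpo genes. Without replicate 3 of every treatment, a choice made after seeing this, 56 and 61 genes were called lower in the CHX comparisons and 0 in the DEX ones. With the replicate number as a block the counts were 61 and 63, and the calls with DEX stayed at 0. What same-numbered arrays have in common was not tested.

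Nuclear genes for plastid proteins could be followed only in part. Of 44 nuclear photosynthesis genes listed, which also mark green tissue, 7 were measured: RCA, LHCB4.1, PSBW, PSBY, PSAE-1, PSAN and ATPC1. Their means over 12 arrays, from 4.85 for PSAE-1 to 7.05 for PSBW, were below that of every chloroplast gene (lowest 7.49). Those of PSBY, PSAE-1, PSAN and ATPC1 were also below the median gene (5.99). With CHX against mock 6 of the 7 were called lower (median -0.869), and with DEX+CHX against DEX 4 were lower and 1 higher, LHCB4.1 (0.58, median of the 7 -0.458). Of all genes, 30.7% were lower and 24.2% higher for CHX against mock, and 32.5% and 23.3% for DEX+CHX against DEX. The falls with CHX against mock were -1.72 for PSBY and -1.12 for PSBW, of photosystem II, -0.81 for PSAN and -0.68 for PSAE-1, of photosystem I, -1.71 for ATPC1, of the ATP synthase, and -0.87 for RCA, which activates Rubisco. With DEX against mock all 7 were negative (median -0.504, from -0.92 to -0.407), though none was called, and with DEX+CHX against CHX none was called (median -0.0457). Their summed linear level was 344 to 451 with DEX+CHX, 366 to 463 with CHX, 450 to 579 with DEX and 608 to 807 with mock, and none was at 0. Their part in the differences of the chloroplast genes was not tested. The 6 sigma factors and 12 polymerase-associated proteins listed had no row of their own. Of 3 loci listed for phage-type polymerases 1 was measured and was called in no comparison (0.18 for CHX against mock, adjusted p = 0.161).

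Genes that the array annotation names nad or cox, families of the mitochondrial respiratory chain, were also lower with CHX. All 10 measured were called lower in both CHX comparisons, with medians of -0.363 and -0.401 against -0.541 and -0.57 for the chloroplast genes, where 30.7% and 32.5% of all genes were called lower. Their means over 12 arrays ran from 11.44 for nad6 to 13.05 for cox1. The 21 brightest chloroplast genes (means 11.52 to 12.87) had medians of -0.382 and -0.42, closer to those of the nad and cox genes. The 88 other genes in that range had medians of -0.377 and -0.353, with 68.2% and 65.9% called lower. With DEX none was called (medians 0.00732 for DEX against mock and -0.00335 for DEX+CHX against CHX). The RefSeq table places none of these 10 on a genome, so they rest on their names alone. The difference between them and the chloroplast genes was not tested.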

How the data were processed

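RNA from whole roots was hybridised to Affymetrix arrays, 1 per sample. Per the labels' protocols, sense-strand biotin-labelled targets were made from total RNA. The authors made the values with Affymetrix Expression Console 1.3, per the submitters' processing notes, and the methods of summarization and normalization are not stated in those sources. The authors' deposited values were read as log2 expression, because their maximum of 13.98 is above the natural log of the highest scanner reading (11.1), and they were not normalized again. Detection calls were not used here, and the number of arrays limits the precision.

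Of 38408 rows, the platform annotation named 1 gene for 16722, several for 759 and none for 20927. They gave 16550 genes, each read from its row with the highest mean. Symbols came from the RefSeq table of TAIR10.1 by gene identifier (16411 matched, 139 not). No coordinates are printed, because the annotation's build is not stated. The 12 arrays were fitted together, with a mean for each treatment, in limma 3.58.1 (R 4.3.3), with two-sided moderated tests (eBayes) and Benjamini-Hochberg adjustment over 16550 genes. Genes were called at an adjusted p below 0.05. Differences are between group means on the log2 scale, given ± the SE of the fit. A percent lower is computed from its antilog.

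The chloroplast genes, function groups, nuclear lists and transcription units were chosen with earlier results of these data known. Values of every array are given for the genes with the highest and lowest mean signal, for the 3 largest differences per direction and contrast, and for psaA, psbA, petB, ndhF, rpl33, rps18, rpoB, rbcL, accD, clpP and matK (atpB, also listed, has no row of its own). Any other of the 63 genes could be named with its values, and called members of the nuclear lists are named. The nad and cox genes were added by their annotation names, since no gene matched a mitochondrial entry.

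On simulated arrays with 200 of 16550 genes changed, the fit for CHX against mock recovered 4.48% of the changes of 0.3, 26.9% at 0.5 and 77.3% at 1 (log2), with 6.49% of calls false. For DEX against mock it recovered 1.49%, 32.8% and 72.7%, with 7.79% of calls false. In the data, 30.7% of all genes were called lower and 24.2% higher for CHX against mock, a far larger share than was simulated. The adjusted p depends on that share, so the recovery for CHX against mock does not describe this comparison. Median replicate SDs were 0.076 to 0.114 in the chloroplast genes and 0.145 to 0.154 over all genes, by treatment. The recovery was not worked out for the chloroplast genes alone.

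Replicate numbers were checked for pairing by the correlation of deviations from group means across genes. It was 0.244, 0.157 and 0.332 for DEX+CHX with CHX, which were read as pairs on the data alone, and was below 0.1 for at least 1 number in the other contrasts. Over the 63 genes alone it was 0.148 to 0.791 for every number in every contrast. One alternative had the replicate number as a block. The other alternatives were quantile normalization, centring, leaving out the dimmest 30% of genes, all rows, a robust trended variance, mean probe sets, a fit to the compared arrays alone, a stricter adjusted p (0.01), a fold minimum (2) and leaving out each array.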

Additional observations from a re-analysis of the deposited data

How the results depend on the processing

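The counts of 60 lower genes in both CHX comparisons held within 1.5 times under every alternative run except a fold minimum of 2, which left 5 for CHX against mock and 7 for DEX+CHX against DEX by its construction. Leaving out 1 array at a time gave 54 to 62 and 59 to 62. For CHX against mock and DEX+CHX against DEX in turn, the replicate block gave 61 and 63, leaving out the dimmest genes 61 and 63, all rows 59 and 60, mean probe sets 60 and 60, a trended and robust variance 61 and 62, just the arrays compared 59 and 62, and an adjusted p of 0.01 51 and 58. Quantile normalization gave 42 and 46, and centring on the genes tested 63 and 63. Centring on all rows, which would make the falls much smaller, was not run. The block thus added rpl36 and other genes of wide spread, and changed no DEX or interaction call. In both DEX comparisons and the interaction the counts were 0 under every alternative run (0 to 0 when leaving out arrays). Over 315 gene results and 6552 values, 6461 stayed on their side of the threshold, some uncalled ones with a change of sign, 54 lost a call, 36 gained one and 1 called value reversed: rpl14 for DEX+CHX against DEX was 0.01 (adjusted p = 0.916) with quantile normalization, and the cause was not tested. Calls that were lost most often for CHX against mock were those of rps14, rps15 (adjusted p = 0.0363, up to 0.242) and rpl16 (0.0152). The 3 uncalled genes psbT, rpl32 and rpl36 were called in some alternatives. Signal over background could not be weighed, since no background level was used here.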

Other observations

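A further 17 rows were annotated to several genes that all lie on the chloroplast genome, 14 of them naming 1 gene a pair of times. They hold 13 names, none of which is among the 63 genes, and 12 of the rows share their values with another, which leaves 11 distinct sets of values. In a fit over all 38408 rows, all 17 were called lower for CHX against mock (median -0.523, from -0.742 to -0.409) and all 17 for DEX+CHX against DEX (median -0.562, from -0.832 to -0.393), where 41.8% and 43.5% of all rows were called lower. None was called for DEX against mock (median -0.00287) or DEX+CHX against CHX (median 0.000333). Their genes are not named, because rows annotated to several gene entries were set aside here, also where the entries carry the same name.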
